A study of Mus musculus with 6 samples.

Results

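Mast cells and basophils are granulocytes that store histamine and proteases and release them when antigen cross-links IgE bound to the high-affinity IgE receptor. The set described here holds 10 genes that mark these cells, chosen by symbol: the receptor subunits Ms4a2 and Fcer1a, the histamine-forming enzyme Hdc, the granule proteases Cpa3, Mcpt8, Prss34, Tpsb2, Tpsab1 and Cma1, and the transcription factor Mitf. Of these, 9 had a probe set with a single gene symbol, among 18193 such genes on the arrays, and each gene was read from its probe set with the highest mean over 6 arrays. Prss34 had none under its symbol, so its expression was not analysed here. The cells were 32D, an interleukin-3-dependent murine myeloid line. The arms were 3 samples carrying an empty vector (construct label A1-EV) and 3 expressing miR-9/9* (construct label C2-MiR-9), the strands miR-9 and miR-9* of 1 microRNA precursor, numbered 1 to 3 in each arm. All 6 samples grew in 10% fetal calf serum with 10 ng/ml interleukin-3. No source used here gives the promoter driving the construct, whether the transduced cells were clones, or how the replicates, described as independent, were kept apart.

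In mouse, the IgE receptor is built from an IgE-binding alpha chain, a signal-amplifying beta chain and a gamma chain shared with other Fc receptors. Chymases, tryptases and carboxypeptidase A3 are packed with histamine on serglycin proteoglycan in the granules, whereas Mcpt8 marks basophils. GATA2, MITF and STAT5 downstream of interleukin-3 are known regulators of the lineage.

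The strands that distinguish the arms are shown first, from RefSeq (GRCm38.p6), with the seed, bases 2 to 8, in capitals. Their seeds differ.
mmu-miR-9-5p (miR-9): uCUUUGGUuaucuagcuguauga
mmu-miR-9-3p (miR-9*): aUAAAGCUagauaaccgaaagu

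The 250 bases before the RefSeq start (GRCm38.p6) follow for the 4 members whose signals went up and down together over the arrays, a choice made after their values were seen. Capitals mark AGATAA or TGATAA, motifs of GATA factors, and CATGTG or CACGTG, E boxes that MITF can bind, on either strand.
Cpa3 (chr3:20242182-20242431, minus strand): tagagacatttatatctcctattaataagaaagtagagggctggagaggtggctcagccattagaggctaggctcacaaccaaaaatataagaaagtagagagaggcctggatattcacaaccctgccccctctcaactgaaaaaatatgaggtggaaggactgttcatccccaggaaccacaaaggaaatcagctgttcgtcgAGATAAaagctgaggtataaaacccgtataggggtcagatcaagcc
Fcer1a (chr1:173227230-173227479, minus strand): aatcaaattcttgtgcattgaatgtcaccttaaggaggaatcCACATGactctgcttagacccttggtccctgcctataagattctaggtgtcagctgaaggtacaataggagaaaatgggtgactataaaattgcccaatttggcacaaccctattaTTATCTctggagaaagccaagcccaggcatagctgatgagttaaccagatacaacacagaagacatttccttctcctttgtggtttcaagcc
Hdc (chr2:126618679-126618928, minus strand): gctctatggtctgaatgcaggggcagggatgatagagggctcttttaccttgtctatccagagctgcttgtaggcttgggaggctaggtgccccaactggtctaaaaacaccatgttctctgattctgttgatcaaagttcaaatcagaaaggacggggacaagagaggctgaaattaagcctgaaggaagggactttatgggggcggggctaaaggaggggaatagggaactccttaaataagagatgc
Cma1 (chr14:55944676-55944925, minus strand): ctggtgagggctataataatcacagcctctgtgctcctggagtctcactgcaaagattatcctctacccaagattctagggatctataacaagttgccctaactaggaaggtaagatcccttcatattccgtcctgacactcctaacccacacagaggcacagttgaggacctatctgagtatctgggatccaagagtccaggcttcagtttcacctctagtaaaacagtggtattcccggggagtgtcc
Cpa3 held AGATAA 41 to 46 bases before the start, and Fcer1a held it on the opposite strand 87 to 92 bases before the start, with CATGTG on that strand further upstream. Hdc and Cma1 held neither kind of motif in the window. The table had windows for 8 members, 10 in all since Mitf has several starts. AGATAA or TGATAA stood in a window of 5 of the 8 (Ms4a2, Fcer1a, Cpa3, Prss34 and Mitf), against 16.6% of all 32851 windows. CATGTG or CACGTG stood in 2 of the 8 (Fcer1a and Prss34), against 17.6%. CANNTG, the general E box that includes both MITF motifs, stood in 7 of the 8, against 66.2% of all windows. GAGGAA, a PU.1 motif, stood in 2 of the 8 against 23.3%, and TTCNNNGAA, a STAT5 motif, in 0 against 7.02%. The counts are of genes with a match in any of their windows, whereas the shares are of single windows. Mitf, with several windows, thus had more room for a match. Both strands were searched, and a match is a description of letters only.

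Each array gives a MAS5 signal per probe set. The median signal of an array lay between 12.0 and 15.2, and no arrays were identical. The line carried the pan-leukocyte gene Ptprc (1367 to 1642) and the interleukin-3 receptor subunit Csf2rb (974 to 2736). Of 7 genes used to check the myeloid label, Cd34 alone lay below the filter on low signals described next. Of 9 lymphoid markers measured, 8 lay below it, Cd3e at no more than 12.7 and Cd79a at no more than 6.71. With 3 arrays an arm, precision is limited by their number.

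Signals of the 9 members were low. Genes were tested only where the mean log2(signal + 16) reached 4.86, the median over probe sets (a signal of 12.9), which left 10208 genes. Fcer1a, Cpa3, Mcpt8, Hdc, Cma1 and Mitf passed, and Ms4a2, Tpsb2 and Tpsab1 did not. Hdc lay just inside at a mean of 4.95 and Ms4a2 just outside at 4.80 on that log2 scale. The highest signal of any member on any array was 77.0, and the summed signal of all 9 ran from 96.6 to 299.7 per array.

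**Figure D1:**
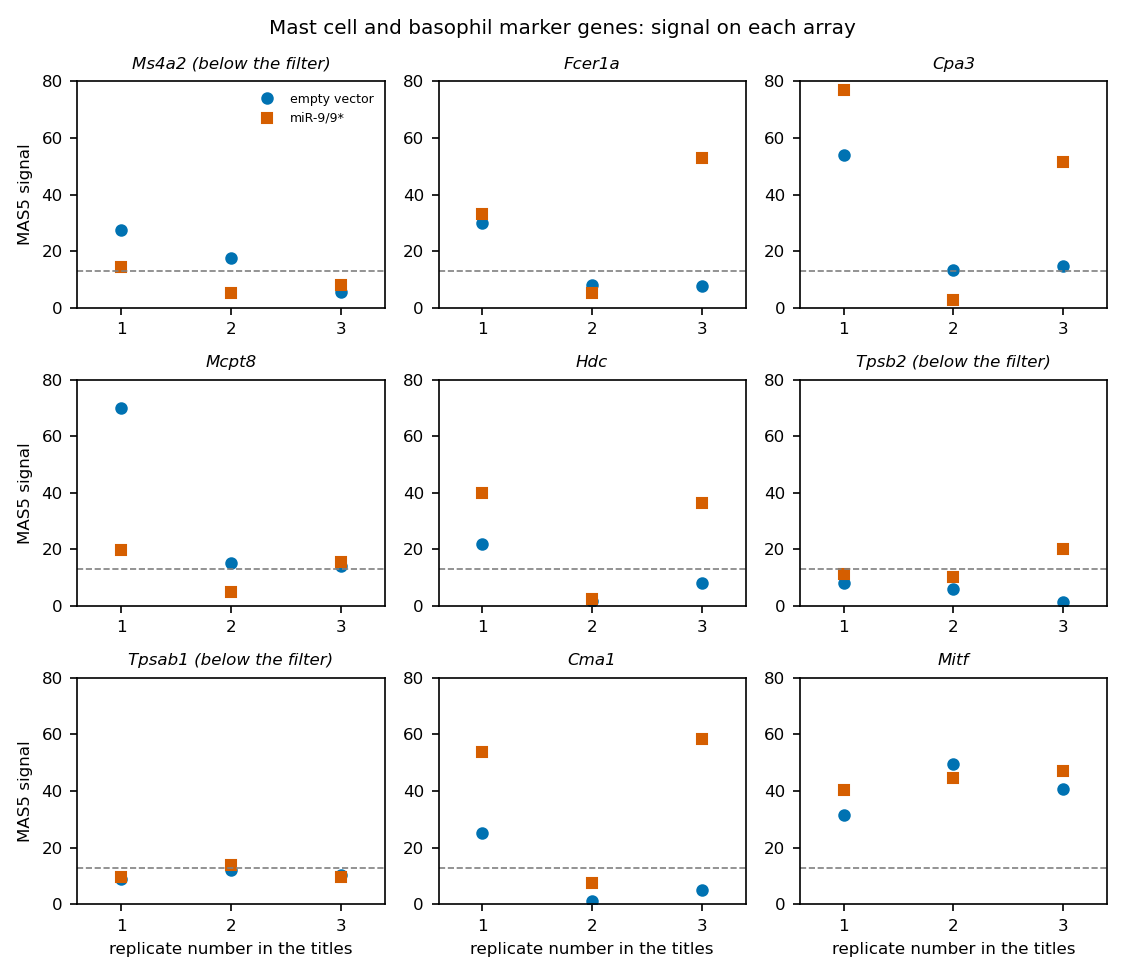
MAS5 signal (vertical axis) of the 9 measured members on each array against the replicate number in the titles, circles for empty vector and squares for miR-9/9*; the dashed line is the filter at a signal of 12.9. Cpa3, Cma1, Hdc and Fcer1a stand above the line on both arrays numbered 1 and on miR-9/9* number 3, whereas Mitf stays between 31.5 and 49.5. Cpa3 is also just above it on empty vector 2 and 3, at 13.2 and 14.6.

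The IgE receptor alpha chain, Fcer1a (probe set 1421775_at), was at 30.1, 8.09 and 7.73 with empty vector 1, 2 and 3, and at 33.3, 5.16 and 53.0 with miR-9/9* 1, 2 and 3. It was high on both arrays numbered 1 and on miR-9/9* number 3, low on the others, and the arms overlapped. The beta chain, Ms4a2 (1443264_at), was at 27.4, 17.4 and 5.45 with empty vector and at 14.2, 5.16 and 7.90 with miR-9/9*. Its highest arrays were empty vector 1 and 2. The other probe set of Ms4a2 never exceeded 7.79. The gamma chain Fcer1g, named here for its place in the receptor, ran from 1217 to 1535 on the 6 arrays, so its signal was well above the filter in both arms.

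Cpa3 (1448730_at), the granule carboxypeptidase of mast cells, was at 53.9, 13.2 and 14.6 with empty vector and at 77.0, 2.79 and 51.7 with miR-9/9*. The chymase Cma1 (1449456_a_at) was at 25.2, 1.06 and 5.13 with empty vector and at 53.8, 7.63 and 58.5 with miR-9/9*. Hdc (1454713_s_at), which makes histamine from histidine, was at 21.9, 1.57 and 7.92 with empty vector and at 40.1, 2.35 and 36.3 with miR-9/9*. In all of these genes the arrays numbered 2 were the lowest of their arm, and empty vector 1, miR-9/9* 1 and miR-9/9* 3 were the highest arrays. Number 2 was lowest in both arms for 19.8% of all tested genes. The arms overlapped in each. A further probe set of Hdc, 1451796_s_at, peaked at 21.7 on miR-9/9* number 3 and stayed at or below 10.2 elsewhere.

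The basophil protease Mcpt8 (1449965_at) was at 70.2, 15.2 and 13.99 with empty vector and at 19.6, 4.89 and 15.4 with miR-9/9*. Empty vector number 1 stood far above the other arrays, which ran from 4.89 to 19.6. The tryptase Tpsab1 (1426175_a_at) was nearly flat, from 8.73 to 13.8. Tpsb2 (1451802_at), another tryptase, was at 8.10, 5.90 and 1.49 with empty vector and at 11.2, 10.2 and 20.3 with miR-9/9*. These arms did not overlap, but 9.84% of the 10208 tested genes had arms that did not overlap, and Tpsb2 was below the filter. Its other probe set, 1422180_a_at, ran from 1.72 to 7.80 with overlapping arms. Tryptase genes are close copies, so their probe sets may share message.

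Mitf (1455214_at), the transcription factor on which mast cells depend, was at 31.5, 49.5 and 40.7 with empty vector and at 40.5, 44.6 and 47.0 with miR-9/9*. It was above the filter on all 6 arrays and varied little. Its other probe set, 1422025_at, never exceeded 5.98.

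Fcer1a, Cpa3, Hdc, Cma1 and Mcpt8 thus shared their 3 highest arrays: empty vector 1, miR-9/9* 1 and miR-9/9* 3. Of the 10208 tested genes, 6.2% had those 3 arrays highest, and 6.28% of the 1767 tested genes with mean log2 values between those of Hdc and Mitf. The pattern was picked out after the values were seen. For Mcpt8 it rests on 15.4 against 15.2 for the third and the next array. Centred on their means, Hdc and Fcer1a differed by a root mean square of 0.23 over the 6 arrays on the log2 scale, Hdc and Cma1 by 0.24 and Hdc and Cpa3 by 0.29. Mcpt8 differed from Hdc by 0.71 and from Cma1 by 0.88. These arrays share culture, RNA and hybridisation across genes, so the likeness is a description.

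**Figure D2:**
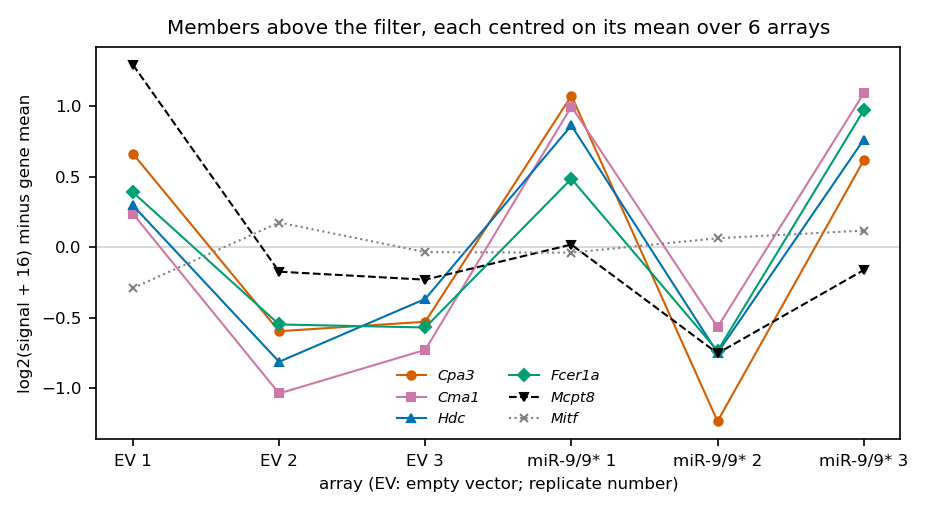
Log2(signal + 16) of each member above the filter minus its mean over 6 arrays (vertical axis), by array (horizontal axis); lines only join points of a gene, since arrays have no order. Cpa3, Cma1, Hdc and Fcer1a follow each other with high points on empty vector 1, miR-9/9* 1 and miR-9/9* 3, whereas Mcpt8 peaks on empty vector 1 and Mitf stays near 0.

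By the rule for likeness, the tested genes nearest to Cpa3 were Kcne3, a potassium channel subunit, at a root mean square difference of 0.26 over the 6 arrays, and Stx3, a syntaxin of vesicle fusion, at 0.27. Arsb, a lysosomal sulfatase, followed at 0.28, the lectin receptor Clec4e at 0.30 and the macrophage antigen Adgre1 at 0.31. Cpa3 itself deviated from its own mean by 0.83 on this measure. Stx3 was at 311, 138 and 199 with empty vector and at 374, 92.2 and 258 with miR-9/9*, so it too was lowest on number 2 of each arm. Nearest to Mitf were Btg1, Clk3, Ngrn, 1700042G07Rik and Pih1d1. They differed from it by at most 0.05, while Mitf deviated from its own mean by only 0.15.

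Replicates of an arm differed more for 5 members than for most genes. The SD within arms on the log2 scale was 1.00 for Cpa3, 0.81 for Cma1, 0.75 for Hdc, 0.73 for Fcer1a and 0.67 for Mcpt8, but 0.17 for Mitf. Its median was 0.18 over all tested genes and 0.22 over the 1767 at the same level. Below the filter it was 0.41 for Ms4a2, 0.25 for Tpsb2 and 0.11 for Tpsab1.

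**Figure D3:**
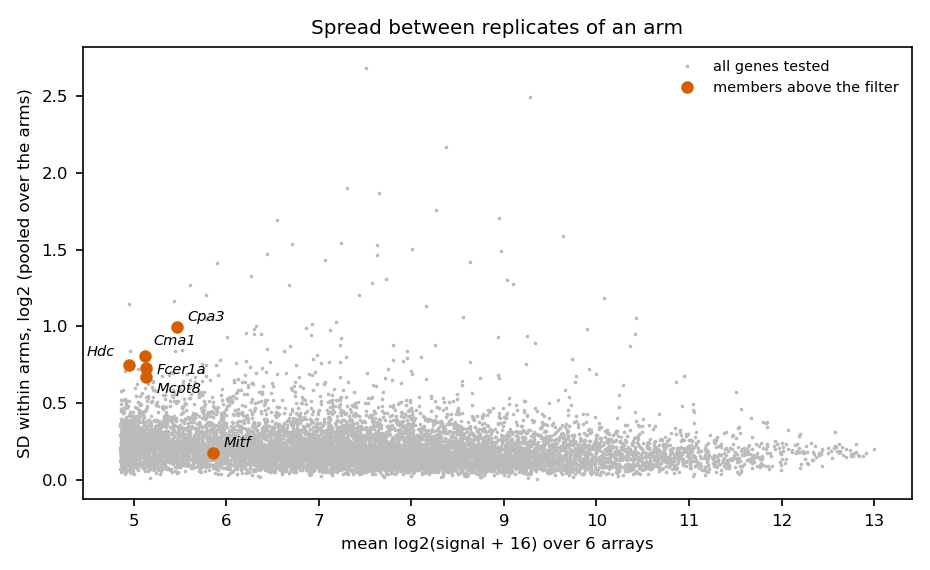
SD of log2(signal + 16) within arms, pooled over both arms (vertical axis), against the mean over 6 arrays (horizontal axis), for all 10208 genes tested (grey) and the 6 members above the filter. Cpa3, Cma1, Hdc, Fcer1a and Mcpt8 lie between 0.67 and 1.00, above the median of 0.18, and Mitf lies at 0.17.

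Cpa3, Hdc, Cma1 and Mcpt8 differed between the replicate numbers. Same-numbered arrays were not alike throughout: on number 3 Cpa3, Hdc and Cma1 were low with empty vector and high with miR-9/9*, and on number 1 Mcpt8 was at 70.2 against 19.6. In a limma F test of the number, with the arm in the model, 4 of the 6 tested members passed, against 24.3% of all tested genes and 8.49% of those at the same level. The mean of both arms ran from 4.55 for number 2 to 6.33 for number 1 in Cpa3 on the log2(signal + 16) scale (adjusted p = 0.0156). It ran from 4.17 to 5.53 in Hdc (adjusted p = 0.0128), from 4.33 to 5.75 in Cma1 (adjusted p = 0.0200) and from 4.67 to 5.79 in Mcpt8 (adjusted p = 0.0389), again with number 2 lowest and number 1 highest. For all 4 genes the mean of number 2 lay below the filter, so they entered the test through the other numbers, and their count is given as a description. Fcer1a, from 4.50 to 5.57, did not pass (adjusted p = 0.0929), nor did Mitf (0.357). Without the filter on dim genes none of the 9 passed in limma (lowest adjusted p = 0.0597, for Hdc, with 4 at an unadjusted p under 0.05), and without a variance trend Hdc alone did. The test has 2 residual degrees of freedom.

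Markers of other granulocytes moved with the numbers as well. Of 4 tested eosinophil markers 3 passed the same test, and of 7 tested neutrophil markers 7, against 24.3% of all tested genes. Summed signals of the 6 eosinophil markers measured were 1378, 258 and 387 with empty vector 1, 2 and 3, and 3779, 280 and 1077 with miR-9/9*. In both sums and in Cpa3, number 1 was highest in each arm. The eosinophil peroxidase Epx alone ran from 54.4 on miR-9/9* number 2 to 2270 on miR-9/9* number 1. The 11 neutrophil markers summed to 5308, 2813 and 1844 with empty vector and to 5541, 1613 and 1905 with miR-9/9*. Not every neutrophil marker followed that sum: Prtn3 and Lcn2 were highest on empty vector 2, at 1692 and 229. Both beta chain genes of the interleukin-3 receptor passed the number test, whereas the alpha chain gene Il3ra did not (adjusted p = 0.910). Csf2rb was at 1244 and 974 on the arrays numbered 2 and at 2050 or more on the others, and Csf2rb2 at 663 and 614 against 1727 or more. In whole cultures, fewer cells of a type and less RNA per cell cannot be told apart, and the part of these markers in the members' spread was not tested.

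No member differed between the arms past the threshold. In limma without pairing 0 of 6 passed and 0 had an unadjusted p under 0.05, where 0.0588% of all tested genes passed (0.0196% as higher) and 4.61% had such an unadjusted p. The arms overlapped in all 6. Over all tested genes, deviations of same-numbered arrays were correlated, so a further fit took the replicate number as a block. Again 0 of 6 passed, against 2.95% of all genes, with an unadjusted p under 0.05 for 3 of them (Cma1, Hdc and Mcpt8) against 17% of all genes. These 3 passed the filter through 1 arm only: the mean log2(signal + 16) was 4.62 with empty vector and 5.64 with miR-9/9* for Cma1, 4.65 and 5.24 for Hdc, and 5.43 and 4.84 for Mcpt8. Nothing is read from their count, nor from the median log2 fold change of the 6, which was 0.39 beside 0.01 for all tested genes.

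Cma1 came closest. It went from 10.5 ± 12.9 with empty vector to 40.0 ± 28.1 with miR-9/9* (SD, n = 3), or 1.02 on the log2 scale with a 95% interval of -0.05 to 2.08 (adjusted p = 0.999). With the block the interval was 0.48 to 1.56 (adjusted p = 0.0610), and all 3 pairs were higher, by 0.76, 0.47 and 1.82 for numbers 1, 2 and 3. Of all tested genes, 21% were higher in 3 of 3 pairs, and 39.1% had the same direction in 3 of 3. In 10 of the 13 fits with the block Cma1 did not pass, among them those without the filter (adjusted p = 0.228), without a variance trend (0.167) and without replicate 3 of both arms (0.162). It passed with a pseudocount of 1 (0.0367) and without replicate 1 or 2 of both arms (0.0453 and 0.0134). The log2 fold change was 2.14 with a pseudocount of 1 and 0.45 with one of 64.

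Hdc went from 10.5 ± 10.4 to 26.2 ± 20.8, which is 0.59 on the log2 scale (adjusted p = 0.192 with the block), higher in 3 of 3 pairs by 0.57, 0.06 and 1.13. Hdc too passed the filter only through the miR-9/9* arm, so its pairs and calls are a description. With the block it did not pass without replicate 1 (adjusted p = 0.348) or 3 (0.584) of both arms and passed without replicate 2 (0.0416). Leaving out single arrays in the fit lacking the block moved its log2 fold change from 0.30, without miR-9/9* replicate 1, to 1.11, without miR-9/9* replicate 2. Fcer1a, at 15.3 ± 12.8 against 30.5 ± 24.0, had a log2 fold change of 0.48, and Cpa3, at 27.3 ± 23.1 against 43.8 ± 37.7, one of 0.31 (block adjusted p = 0.451 and 0.648). Their pairs had both signs, with the largest difference in number 3, 1.54 for Fcer1a and 1.14 for Cpa3. Without replicate 3 of both arms these log2 fold changes were -0.045 and -0.11, and without miR-9/9* replicate 1 that of Cpa3 was -0.16 in the fit without the block.

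Mcpt8 stood at 33.1 ± 32.1 with empty vector and 13.3 ± 7.60 with miR-9/9*, a log2 fold change of -0.59 with a block interval of -1.12 to -0.07 (adjusted p = 0.231). Mcpt8 passed the filter only through the empty vector arm, so its interval, pairs and calls are a description. Its difference was -1.27 in number 1, -0.58 in number 2 and 0.07 in number 3. Without replicate 3 of both arms the block fit gave -0.93 (adjusted p = 0.0420), whereas without empty vector replicate 1 the fit without the block gave -0.10. Mitf, at 40.5 ± 9.01 against 44.0 ± 3.28, had a log2 fold change of 0.10 with a block interval of -0.20 to 0.39. This bounds its difference more narrowly than that of the other members above the filter. The log2 fold change of Mitf was -0.023 without empty vector replicate 1. When the filter was left out, Tpsb2 had a log2 fold change of 0.50 (adjusted p = 0.971, and 0.412 with the block), Ms4a2 one of -0.34 and Tpsab1 one of 0.04, and none of these passed.

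**Figure D4:**
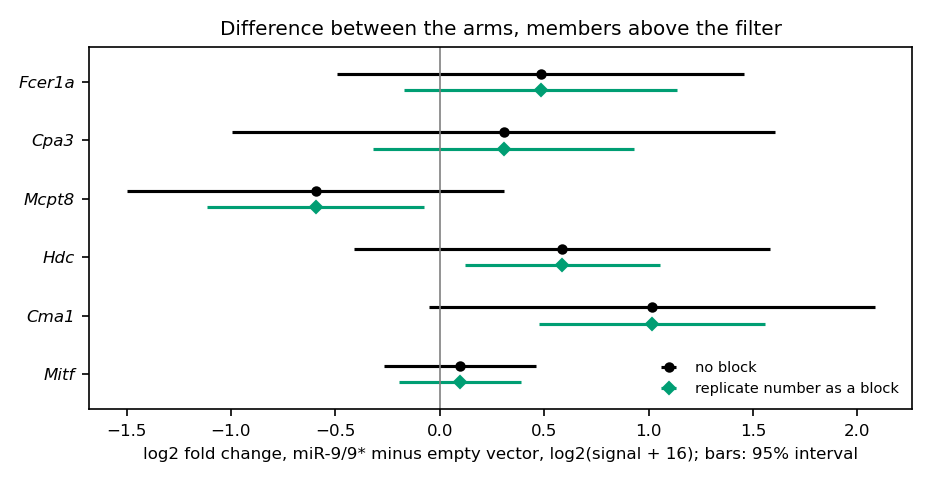
Log2 fold change of miR-9/9* over empty vector on the log2(signal + 16) scale (horizontal axis) for the 6 members above the filter, with 95% intervals from limma without a block (circles) and with the replicate number as a block (diamonds). Intervals without the block all include 0, and with it those of Cma1, Hdc and Mcpt8 do not, though none passed after adjustment over all genes. Cma1, Hdc and Mcpt8 passed the filter only through the arm where they were higher, so nothing is read from these intervals.

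Further genes of the lineage were read from 5 lists covering IgE receptor signalling, granules, mediators, surface receptors and transcription factors. Across these 98 listed genes 91 had a probe set and 67 were tested. Without the block 0 passed. With it 5 were higher (Il4, Siglecf, Gata1, Tal1 and Zfpm1) and 3 lower (Lat2, Grb2 and Csf2rb), against 1.51% of all genes higher and 1.44% lower. Without a variance trend none of the 8 passed in limma (adjusted p from 0.0767 to 0.183), and without the filter on dim genes 7 of the 8 did not (up to 0.198).

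Of 20 tested genes of IgE receptor signalling, 2 fell with the block, against 1.44% of all tested genes. The adaptor Lat2, which recruits signalling proteins below the receptor, went from 501 ± 118.5 to 371 ± 139, or -0.45 in log2 fold change (adjusted p = 0.0445 with the block). Grb2, an adaptor used by many receptors, had -0.29 (adjusted p = 0.0439 with the block). Averaging the probe sets ended both calls (adjusted p = 0.373 for Lat2 and 0.260 for Grb2), as did quantile normalization (0.0728 and 0.0593). The call of Lat2 also ended without replicate 2 of both arms (0.0868), and that of Grb2 without replicate 1, 2 or 3 (0.195, 0.0813 and 0.0925). The median of this list was 0.02.

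Among 11 tested protease and granule genes none passed, and their median log2 fold change was 0.03. Serglycin, Srgn, which holds proteases and histamine in the granule, was at 4749 ± 945 against 4488 ± 573, and the fusion protein Vamp8 at 2146 ± 232 against 2099 ± 123.5. Other mast cell proteases lay below the filter: Mcpt1 reached at most 8.51, Mcpt2 3.96, Mcpt4 2.59, Gzmb 10.4 and Tpsg1 16.03. Ctsg, a protease of neutrophils and mast cells, was at 263, 90.5 and 31.1 with empty vector and at 225, 27.7 and 61.0 with miR-9/9*. It was highest on number 1 of each arm and differed between numbers (adjusted p = 0.00642). Slc18a2, the vesicular transporter that loads histamine, was singled out after its values were seen. It was at 1763 ± 34.9 against 1422 ± 147, with arms that did not overlap, as in 9.84% of all tested genes. Its log2 fold change of -0.31 did not pass (adjusted p = 0.0880 with the block).

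Of 9 tested mediator genes the cytokine gene Il4 rose with the block, from 26.4 ± 5.62 to 50.8 ± 14.4, by 0.64 on the log2 scale (adjusted p = 0.0417 with the block, 0.763 in the fit lacking it). It was at 32.3, 21.0 and 25.95 with empty vector and at 58.8, 34.1 and 59.5 with miR-9/9*. The arms did not overlap, which held for 9.84% of all tested genes, and 1.51% of all tested genes rose with the block. Centring arrays on their medians (adjusted p = 0.0507), quantile normalization (0.0537) and leaving out the filter (0.198) ended that call, as did leaving out replicate 1 (0.117) or 3 (0.133) of both arms. Hpgds, the prostaglandin D synthase of mast cells, stayed at or below 12.8.

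Of 9 tested surface receptor genes Siglecf, a lectin of eosinophils, rose and Csf2rb fell with the block. In that fit 1.51% of all tested genes were higher and 1.44% lower. Siglecf went from 215 ± 74.7 to 384 ± 182, by 0.73 on the log2 scale (adjusted p = 0.00687 with the block). Csf2rb went from 2218 ± 844 to 1735 ± 663, or -0.35 on the log2 scale (adjusted p = 0.0362 with the block), a call lost without replicate 1 (0.220) or 2 (0.163) of both arms. Some markers of other granulocytes differed between the arms in the same fit. Of 4 tested eosinophil markers 2 rose, against 1.51% of all tested genes: Siglecf itself and the granule protein gene Prg2, from 23.4 ± 12.5 to 336 ± 404 (adjusted p = 0.0222). Prg3 did not pass (adjusted p = 0.130 with the block), nor did Epx (0.389), whose pairs had both signs. Ccr3 and Il5ra lay below the filter. Of 7 tested neutrophil markers 3 fell, against 1.44% of all tested genes: Ltf, S100a8 and S100a9, with log2 fold changes of -0.95, -1.36 and -1.32. The other tested neutrophil markers did not pass and had both signs: Ngp -0.78, Lcn2 -0.77, Prtn3 -0.01 and Mpo 1.38 (adjusted p = 0.0740 with the block for Mpo). None of the called eosinophil and neutrophil markers passed without the block. With the block but no variance trend none passed either (adjusted p from 0.0767 to 0.138). The part of these markers in the results for Siglecf and Csf2rb was not tested. Kit, the stem cell factor receptor that marks mast cells, lay below the filter at no more than 13.96. So did the basophil receptor Cd200r3, at no more than 3.59, and Itga2, at no more than 16.9.

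Of 18 tested transcription factor genes 3 rose with the block, against 1.51% of all tested genes. Gata1 went from 622 ± 99.2 to 894 ± 117, Tal1 from 957 ± 10.2 to 1316 ± 186, and Zfpm1, a cofactor of GATA factors, from 382 ± 32.1 to 524 ± 56.3. On the log2 scale these rises were 0.52, 0.44 and 0.44 (adjusted p with the block 0.00687, 0.0247 and 0.0407). The calls of Tal1 and Zfpm1 ended without replicate 1 (adjusted p = 0.0990 and 0.168) or 2 (0.0788 and 0.0729) of both arms. Some markers of other lineages that share these factors rose in the same fit, in which 1.51% of all tested genes were higher. Of 6 tested megakaryocyte markers 4 were higher with the block, Itgb3 by 1.85, Vwf by 0.82, Gp9 by 0.80 and Gp5 by 0.38 on the log2 scale. Itga2b (0.07) and Pf4 (0.01) did not pass, and Ppbp lay below the filter. Of 6 tested erythroid markers 2 were higher, Rhag by 2.33 and Klf1 by 0.80. Hemgn (0.21), Epor (0.12), Tfrc (-0.10) and Epb42 (-0.15) did not pass, and Alas2 and Slc4a1 lay below the filter. Without the block none of the called markers passed. With the block but no variance trend, Itgb3, Gp9 and Rhag passed (adjusted p = 0.0226, 0.0326 and 0.0265). Vwf, Gp5 and Klf1 did not (0.0588, 0.116 and 0.0767). The summed signals of each list overlapped between the arms. They ran from 1222 to 2264 with empty vector and from 1495 to 2850 with miR-9/9* for the 7 megakaryocyte markers measured. For the 8 erythroid ones they ran from 2266 to 3255 against 2912 to 3073. Most of each sum came from a gene that did not pass, Itga2b (log2 fold change 0.07) and Tfrc (-0.10). The sums thus say little about the called markers. The part of these markers in the rise of Gata1, Tal1 and Zfpm1 was not tested. Gata2, a regulator of mast cells and basophils named here for that role, was at 772 ± 82.9 against 667 ± 46.6. Its arms did not overlap, as in 9.84% of all tested genes, but its difference of -0.20 missed the threshold with the block as well (adjusted p = 0.218). Of the relatives of Mitf, Tfe3 was at 98.0 ± 20.2 against 104 ± 21.1. Tfec was at 6.15, 62.3 and 11.7 with empty vector and at 18.7, 133 and 10.6 with miR-9/9*. It was highest on number 2 of each arm, where Cpa3 was lowest, and differed between numbers (adjusted p = 0.00143). Its means for numbers 1 and 3 lay below the filter. Tfec thus entered the test through number 2, and its p-value is given as a description.

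**Figure D5:**
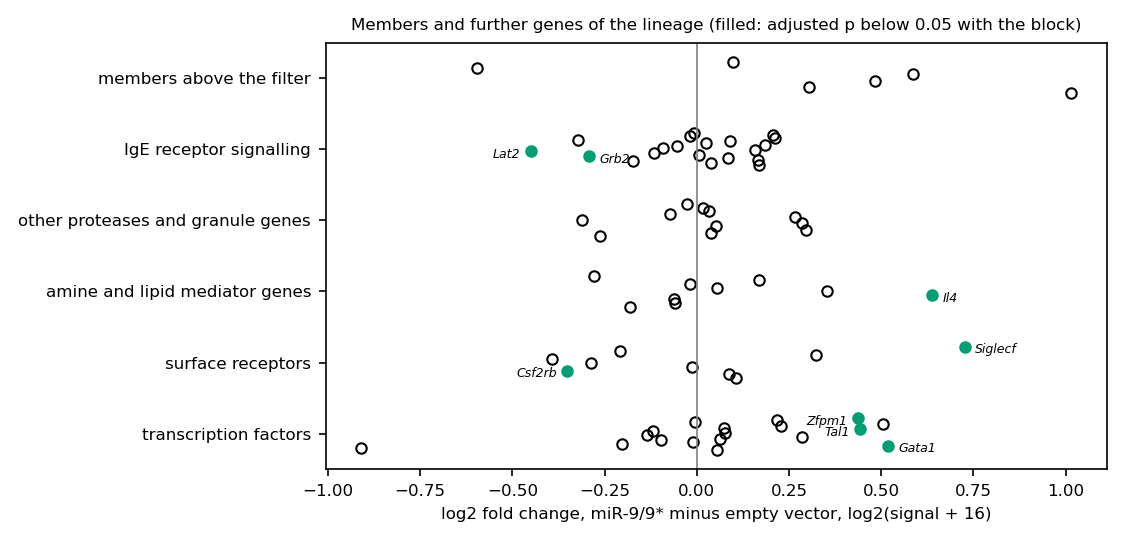
Log2 fold change of miR-9/9* over empty vector on the log2(signal + 16) scale (horizontal axis) for the tested members and the tested genes of 5 further lists (rows, 1 point a gene). Filled points passed with the replicate number as a block: Lat2, Grb2 and Csf2rb below 0, and Il4, Siglecf, Zfpm1, Tal1 and Gata1 above 0, with no member among them.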

How the data were processed

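RNA of 6 samples was extracted with Trizol, and 6 ug of total RNA was made into biotinylated cRNA by the Affymetrix protocol, per the labels' protocols. The deposited values are MAS5 signal intensities on a linear scale, per the submitters' processing notes. No source used here gives the scanner or the MAS5 version and settings. Detection calls were not used here. Of 45101 probe sets, 64 controls were left out. Names came from GEO's platform annotation, in which 34945 of the remaining probe sets carry 1 symbol, 932 several and 9160 none. Of those with 1 symbol, 34741 matched a RefSeq gene table (GRCm38.p6) by Entrez ID.

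Signals were taken as log2(signal + 16). Fold changes on that scale understate changes of dim genes. The arms were set against each other in limma 3.58.1 under R 4.3.3 (lmFit and eBayes, two-sided, variance trend). P-values were adjusted by Benjamini-Hochberg over the 10208 genes that passed the filter, with 0.05 as the threshold. The replicate number was used as a block and tested with an F test. For each number, the deviations from the arm means in both arms had correlations of 0.492, 0.617 and 0.683, above the limit of 0.1, so the pairing is read from the data. The replicates are called independent, but nothing says how they were separated, so p-values measure only the spread between these samples. Fits were also run on simulated data whose variances came from the same fits, so that run cannot show how well they suit these arrays. The members and lists were chosen with earlier results of these data known. By the naming rule all members are named. From other lists come the called genes, at most 4, or the 2 with the highest mean, plus the 5 genes nearest in pattern to each of the 2 members with the highest mean. Other genes are named for their role or after their values were seen. Lists of other lineages are given as counts and sums where a result touches them.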

Additional observations from a re-analysis of the deposited data

How the results depend on the processing

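Between the arms 0 members passed under all 15 alternatives without the block that could be fitted, with the lowest adjusted p at 0.430. With the replicate block 0 passed (adjusted p = 0.0610 for Cma1), but 1 passed (Cma1) with the block and a pseudocount of 1. From 1 to 2 passed when a replicate number was left out of both arms, a fit with 1 residual degree of freedom. The members that passed there, Cma1, Hdc and Mcpt8, had entered the main fit through 1 arm only, so nothing is read from these calls. Directions turned when arrays were left out: Cpa3 to -0.16 without miR-9/9* replicate 1 and to -0.11 with the block without replicate 3, where Fcer1a turned to -0.045, and Mitf to -0.023 without empty vector replicate 1. With 1 array left out and no block, Cpa3 ran from -0.16 to 1.00 and Mitf from -0.023 to 0.21. The median over the members ran from 0.01 to 0.98 over 28 alternatives. Between replicate numbers the count of 4 fell to 0 without a filter on dim genes and to 1 without a variance trend. It was 3 with quantile normalization, where Mcpt8 did not pass. With a pseudocount of 1 or averaged probe sets it was 3 of 5, since Hdc then lay below the filter. The cause was not tested. A filter at the upper quartile of probe sets left no member, so it gave no value. The shared 3 highest arrays held for 5 members under 4 alternatives chosen after seeing the data, namely quantile normalization, median centring, averaged probe sets and no filter. Hdc was counted there with averaged probe sets too, though below the filter. Low signals limit every member except Mitf.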
